A study of Mus musculus with 8 samples.

Results

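Transcripts of 9 genes of the neuronal cytoskeleton and the presynaptic terminal were read on 8 Affymetrix arrays of mouse organ of Corti, the sensory epithelium of the hearing organ. They were Nefl, Nefm, Nefh, Prph, Tubb3, Stmn2, Gap43, Snap25 and Syt1, taken by symbol from the 18193 genes that had a probe set with 1 annotated gene. The 9 genes had 18 such probe sets, and each gene was read from the one of highest mean log2 signal. All 9 passed the filter on low signals, as did 13221 genes in all, and were tested.

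Tissue came from mice at postnatal day 16. Conditional knockout mice (cKO) had the genotype Atoh1-Cre;Dicer1(flox/flox) and littermate controls had Atoh1-Cre;Dicer1(flox/wt), from a cross of the Dicer1tm1Bdh and Tg(Atoh1-cre)1Bfri lines. All groups therefore carried the Cre transgene and at least 1 floxed Dicer1 allele, and controls kept 1 allele without loxP sites. Dicer1 encodes the enzyme that cuts precursors into mature microRNAs, and Atoh1-Cre recombines in hair cells. The 4 groups were cKO base, control base, cKO apex and control apex, with 2 samples each, and a sample pooled the basal or the apical segments of both cochleae of 1 mouse. Apex and base of the same genotype and number were presumed, not stated, to be 1 mouse.

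Hair cells pass their signal to spiral ganglion neurons, whose cell bodies lie in the axis of the cochlea and whose peripheral processes enter the organ of Corti. Type I neurons, the large majority, have thick myelinated axons filled with neurofilaments and contact inner hair cells. The sparse type II neurons are thin, unmyelinated, rich in peripherin and contact outer hair cells. How much ganglion tissue each dissected sample held was not given in the sources used here. In such samples, fewer cells of a type and less RNA per cell cannot be told apart.

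A signal is the deposited intensity of a probe set on a linear scale, with each array scaled to a trimmed mean of 500. The filter sat at a mean signal of 38.7, the 40th percentile of probe sets. Array medians ran from 67.02 to 100.1. Control base held the least alike pair of replicates, with r = 0.9279 across genes, against 0.9615 to 0.9779 in the other 3 groups. Xist, the transcript of the inactive X chromosome, ranged from 77.67 to 140.3 in cKO base and from 119.9 to 300.5 in cKO apex. It was 5365 and 122.3 in control base and 5968 and 92.55 in control apex (replicates 1 and 2), so it was high in replicate 1 of both control groups and low in all 4 cKO arrays. Its part in the genotype comparisons was not tested. Dicer1 itself had log2 differences of -0.02 ± 0.22 (cKO minus control, SE) in the base and -0.09 ± 0.22 in the apex, both with adjusted p = 1 (limma). Whether this probe set lies inside the floxed exon was not given in the sources used here, so the reading does not check the labels. Some hair cell transcripts were present in all groups. The summed signal of 17 hair cell genes ran from 5775 to 6329 in cKO base, 6928 to 7591 in control base, 11582 to 13768 in cKO apex and 10421 to 12373 in control apex. Myo6 alone gave 3605 and 3913 of it in cKO base and 3129 and 4185 in control base (replicates 1 and 2). Pou4f3 read 23.4 and 35.3 in cKO base and 33.5 and 70.9 in control base, with the filter at 38.7. Myo6 and Pou4f3 were named after their values were seen. In the base 6 of 16 tested hair cell genes were lower in cKO and 1 higher at an unadjusted p under 0.05 (limma). For all tested genes that share was 3.12% in either direction, and none had an adjusted p under 0.05.

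Promoter sequence was at hand for 3 of the 9 genes in the RefSeq promoter table (GRCm38.p6): Tubb3, Syt1 and Prph. The windows of Tubb3 and Syt1 are shown because these genes took different courses across the arrays, as described below. Each line gives the 250 bases before the annotated start, 5′ to 3′ on the strand of the gene, with motif matches in capitals.
Tubb3, chr8:123411303-123411552, plus strand: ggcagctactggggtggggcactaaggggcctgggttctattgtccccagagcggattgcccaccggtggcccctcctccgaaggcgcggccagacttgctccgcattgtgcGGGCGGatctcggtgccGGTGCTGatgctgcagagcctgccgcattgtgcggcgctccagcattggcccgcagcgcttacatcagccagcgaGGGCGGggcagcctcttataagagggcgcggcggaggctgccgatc
Syt1, chr10:109010976-109011225, minus strand: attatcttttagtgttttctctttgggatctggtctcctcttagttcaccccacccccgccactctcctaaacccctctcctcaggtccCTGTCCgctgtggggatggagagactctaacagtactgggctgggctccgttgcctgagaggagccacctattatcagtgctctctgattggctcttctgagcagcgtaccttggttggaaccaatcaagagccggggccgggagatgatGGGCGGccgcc
Motifs were searched on both strands and did not overlap each other as spelled: the GC box GGGCGG, the RE1 half-sites CAGCACC and GGACAG bound by the neuronal repressor REST, the CRE half-site TGACG and the TATA box TATAAA. The Tubb3 window held 2 GC boxes and 1 match of CAGCACC on the reverse strand. The Syt1 window held 1 GC box and 1 match of GGACAG on the reverse strand. Of 32851 promoter windows of this length, 32.7% held a GC box, 5.73% CAGCACC, 18.7% GGACAG, 17.8% TGACG and 12.4% TATAAA. These matches describe letters only. The second annotated Syt1 start had none of the 5 motifs in its window, and the Prph window had 1 TATA box and 1 GC box.

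The neurofilament genes moved as a block from array to array. Nefl encodes the light subunit, the core on which neurofilaments assemble. Its signal was 16169 and 10504 in cKO base, 16908 and 7389 in control base, 14092 and 14674 in cKO apex, and 15354 and 13764 in control apex (replicates 1 and 2). Control base held both the highest and the lowest array, and all groups overlapped. A second Nefl probe set gave 12149 and 8224, 12646 and 4619, 12024 and 12331, and 12211 and 10586 in the same order of groups and replicates. It placed the same array lowest.

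Nefm encodes the medium subunit, whose long tail projects from the filament. Its signal was 7152 and 4612 in cKO base, 8534 and 2235 in control base, 7658 and 7258 in cKO apex, and 8934 and 6950 in control apex. Both cKO basal arrays lay below both cKO apical arrays, whereas the control basal pair spanned most of the range. Nefh, the heavy subunit of large axons, read 11237 and 7582 in cKO base, 14124 and 4261 in control base, 11004 and 10852 in cKO apex, and 13008 and 9894 in control apex. Its lowest array was again control base replicate 2.

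Prph encodes peripherin, the filament protein used to mark type II neurons. Its probe set stayed near the filter, at 28.6 and 51.8 in cKO base, 46.1 and 44.3 in control base, 46.4 and 83.5 in cKO apex, and 55.2 and 32.5 in control apex. The groups overlapped, and the highest and lowest arrays both belonged to the cKO. The other 3 Prph probe sets had means under the filter and a different order of arrays. The brightest of these read 75.2 and 61.2 in cKO base and 17.1 and 8.18 in cKO apex. In control base it read 98.7 and 34.1, and in control apex 34.5 and 17.8. Its means were thus higher in the base, so the regional direction of Prph depended on the probe set. No statement on type II neurons was drawn from Prph.

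Among the tubulin and growth genes, Tubb3 and Stmn2 followed the neurofilaments. Tubb3, the neuronal beta-tubulin of axons and dendrites, read 958.8 and 487.2 in cKO base, 1800 and 485.9 in control base, 765.1 and 727.6 in cKO apex, and 1056 and 952.1 in control apex. In the apex both cKO arrays lay below both controls, while in the base the groups overlapped. Stmn2 encodes a stathmin that binds tubulin and maintains axons. It read 2604 and 1687 in cKO base, 4278 and 1117 in control base, 2561 and 2688 in cKO apex, and 3184 and 2604 in control apex. Its highest array was 3.83 times its lowest, and these were the replicates of control base. The weaker Stmn2 probe set also had its highest and lowest arrays there, at 643.6 and 163.9.

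Gap43, a membrane protein of growing axons, ran a different course at a low signal. It read 65.0 and 41.4 in cKO base, 41.3 and 108.5 in control base, 128.2 and 101.9 in cKO apex, and 49.4 and 143.5 in control apex. In both control groups replicate 2 was the higher, by 2.63-fold in the base and 2.91-fold in the apex, the reverse of the neurofilament order. Both cKO basal arrays lay below both cKO apical arrays.

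The pair of presynaptic genes split. Snap25 encodes a membrane SNARE protein that drives vesicle fusion. It read 10554 and 7315 in cKO base, 17305 and 4921 in control base, 11336 and 10474 in cKO apex, and 13673 and 10367 in control apex, with the same highest and lowest arrays as Stmn2. A second, dimmer Snap25 probe set gave 323.7 and 193.9 in cKO base, 295.5 and 228.8 in control base, 502.9 and 251.4 in cKO apex, and 499.0 and 382.9 in control apex. It did not share that order: its highest array was cKO apex replicate 1 and its lowest cKO base replicate 2. Syt1 encodes synaptotagmin 1, a calcium sensor of vesicle release in brain synapses. It read 319.5 and 299.9 in cKO base, 211.3 and 308.1 in control base, 556.5 and 547.6 in cKO apex, and 347.7 and 563.2 in control apex. All 4 basal arrays were below all 4 apical arrays, and control base replicate 1, the highest array for Snap25, was the lowest for Syt1. The other 3 Syt1 probe sets had means under the filter.

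**Figure D1:**
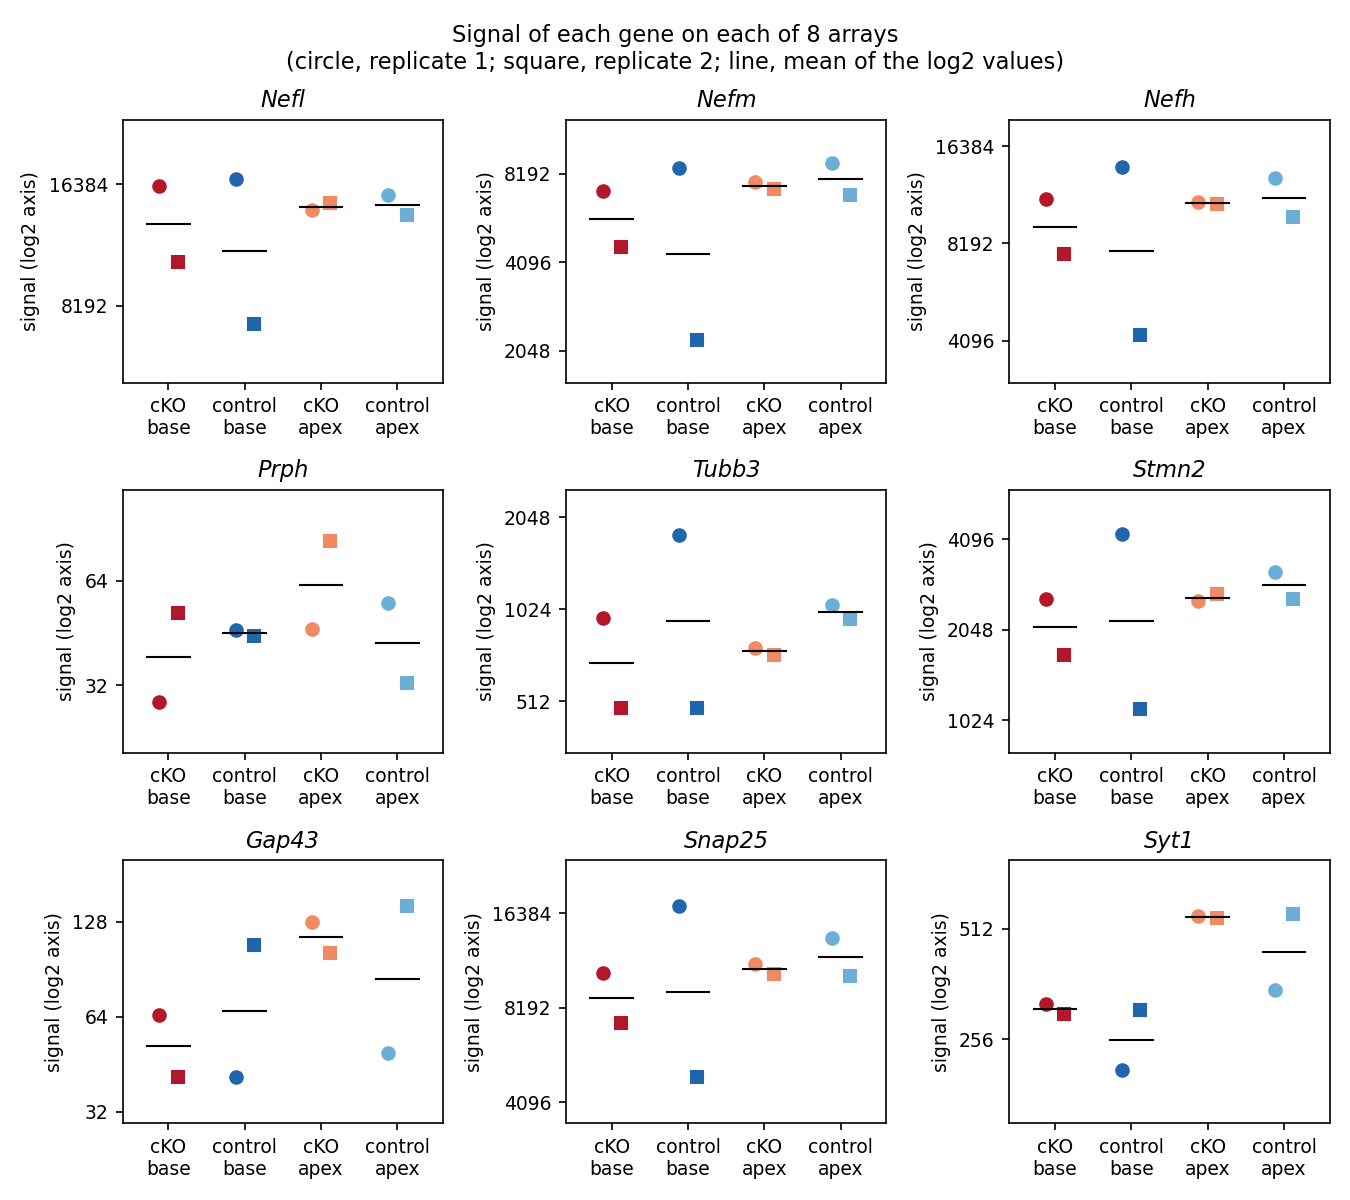
Signal of each of the 9 genes on each array (y axis, linear signal units on a log2 axis) for cKO base, control base, cKO apex and control apex (x axis). Circles are replicate 1, squares replicate 2 and lines the mean of the log2 values. In control base, replicate 1 is far above replicate 2 for 6 genes and far below it for Gap43. For Syt1 every basal array is below every apical one.

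Agreement among the genes sorted them into a tight set and 3 that stood outside it. Over the 8 arrays the 15 pairs among Nefl, Nefm, Nefh, Tubb3, Stmn2 and Snap25 had Pearson r of 0.754 to 0.994 with a median of 0.942. Without the 2 control basal arrays these pairs still had r of 0.843 to 0.991 (median 0.905, 6 arrays). With the same 6 genes over all 8 arrays, Syt1 had r of -0.264 to 0.192, Gap43 -0.320 to -0.201 and Prph -0.196 to 0.056. Without the control basal arrays these were 0.184 to 0.364 for Syt1, 0.197 to 0.350 for Gap43 and -0.388 to 0.027 for Prph, so the negative values of Gap43 rested on the control basal pair. Pairs among 1323 genes spaced evenly through the alphabetical list of tested genes had a median r of 0.000339. These values describe arrays that share groups and presumed mice, and the set of 6 was chosen after their values were seen.

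Averaged over the 6 genes, the deviation from the mean of 8 arrays summarised each array on a log2 scale. It was 0.18 and -0.48 in cKO base, 0.68 and -1.07 in control base, 0.12 and 0.09 in cKO apex, and 0.39 and 0.10 in control apex. Control base replicate 2 was the lowest array and control base replicate 1 the highest, and cKO base replicate 2 was second lowest. Apical arrays stayed within a narrow band.

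Between the control basal replicates the 6 genes differed by 2.29-fold (Nefl) to 3.83-fold (Stmn2), where the median gene differed by 1.27-fold. This holds for the probe sets read. The dimmer Snap25 probe set had a far smaller gap, at 295.5 in replicate 1 and 228.8 in replicate 2. Only 3.76% of all tested genes had as large a gap as Stmn2, and 10.6% as large as Nefl. In cKO base the corresponding gaps were 1.44-fold (Snap25) to 1.97-fold (Tubb3). In cKO apex they were at most 1.08-fold.

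Many, not all, of the other neuronal genes had a gap in the same direction. Replicate 1 of control base was over 2-fold above replicate 2 for 15 of 27 other cytoskeletal genes, 22 of 27 other presynaptic genes and 23 of 26 genes of neuron identity and excitability, against 8.638% of all tested genes. The remainder included 4 cytoskeletal, 3 presynaptic and 2 identity genes that were not higher in replicate 1, among them Tubb2b, a tubulin, at 309.7 in replicate 1 and 635.1 in replicate 2. Elavl4, an RNA-binding protein of neurons, read 4218 in replicate 1 and 641.2 in replicate 2. Slc17a6, a vesicular glutamate transporter, read 2209 and 383.1, and Syp, a synaptic vesicle protein, 3393 and 813.3. Calb2, the calcium buffer calretinin found in many type I neurons, read 15659 and 6446. Elavl4, Slc17a6, Syp and Calb2 were named after their values were seen.

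Myelin and Schwann cell genes varied less than the neuronal lists. Of 15 such genes 14 were higher in control base replicate 1, against 48.32% of all tested genes. Only 3 (20%) were so by over 2-fold, still above the 8.638% of all tested genes. Their summed signal was 108361 to 110545 in cKO base, 88052 to 115249 in control base, 115695 to 122161 in cKO apex and 107058 to 113562 in control apex. The stria vascularis genes, of the tissue on the lateral wall, went the other way: all 10 tested were lower in control base replicate 1, with a median log2 gap of -2.75. The summed signal of all 13 listed was 35905 to 40153 in cKO base, 7280 to 41389 in control base, 10510 to 12561 in cKO apex and 12553 to 14902 in control apex. No member of any of these lists had a signal of 0, and the part of other tissue in the gap between the control basal arrays was not tested.

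**Figure D2:**
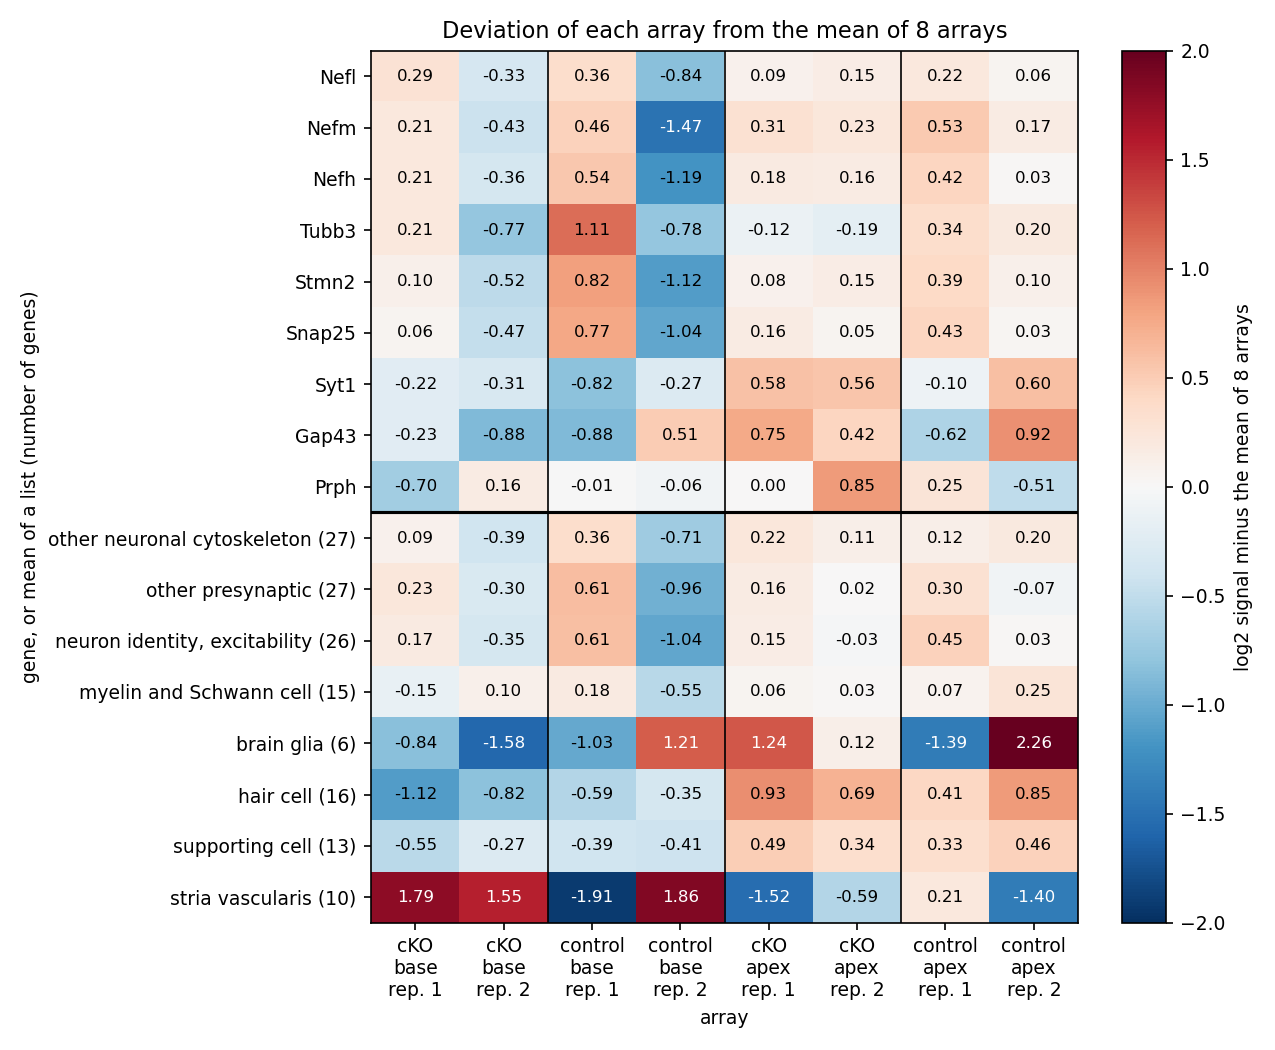
Log2 deviation of each array (columns) from the mean of the 8 arrays, for the 9 genes and for the means of 8 lists with the number of genes in brackets (rows); red is above and blue below the mean. Nefl, Nefm, Nefh, Tubb3, Stmn2 and Snap25 share the pattern of the 3 neuronal lists, lowest in control base replicate 2, while Gap43 is high in 3 arrays that are high in the brain glia row and Syt1 is negative in every basal array.

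Whether loss of Dicer1 in hair cells went with a change in neuronal transcripts was asked first in the base. In cKO base against control base the log2 difference was 0.22 ± 0.36 (SE) for Nefl, 0.40 ± 0.55 for Nefm and 0.25 ± 0.49 for Nefh. It was -0.45 ± 0.57 for Tubb3, -0.06 ± 0.55 for Stmn2 and -0.07 ± 0.51 for Snap25. Syt1 gave 0.28 ± 0.29, Gap43 -0.37 ± 0.64 and Prph -0.23 ± 0.51. None of the 9 passed limma's threshold (adjusted p = 1 for each), 0 had an unadjusted p under 0.05, and the share of all tested genes called was 0%, with 3.12% at an unadjusted p under 0.05. No gene of the 9 had separate groups, where 28.7% of all tested genes did. The median was -0.06 over the 9 genes and -0.002 over all genes.

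The basal differences of Nefl, Nefm, Nefh, Tubb3, Stmn2, Gap43 and Snap25 changed sign with the control sample kept, and those of Syt1 and Prph did not. Without control base replicate 1, Nefm gave 1.36 and Snap25 0.84, and without control base replicate 2 they gave -0.57 and -0.98. The intervals were wide: for Nefl the 95% confidence interval ran from -0.63 to 1.07, and for Nefm from -0.88 to 1.67.

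In the apex cKO minus control was -0.02 ± 0.36 for Nefl, -0.08 ± 0.55 for Nefm, -0.05 ± 0.49 for Nefh, -0.13 ± 0.55 for Stmn2 and -0.13 ± 0.51 for Snap25. Each SE draws on the spread in all 4 groups, not on the apical arrays alone. For Nefl the standard deviation of log2 signals was 0.041 in cKO apex, 0.11 in control apex, 0.44 in cKO base and 0.84 in control base. For Tubb3 it was 0.051, 0.11, 0.69 and 1.34 in the same order. Tubb3 gave -0.43 ± 0.57 and was the 1 gene of the 9 whose cKO arrays all lay below the controls, where 16.2% of all tested genes did so. Syt1 gave 0.32 ± 0.29, Gap43 0.44 ± 0.64 and Prph 0.56 ± 0.51. Again 0 of 9 passed limma (adjusted p = 1 for each) and 0 had an unadjusted p under 0.05, beside 0% and 2.19% of all tested genes. Second probe sets gave 0.10 ± 0.42 for Nefl, -0.49 ± 0.68 for Stmn2 and -0.30 ± 0.39 for Snap25.

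Over both regions, with 1 mean per presumed mouse, the 9 differences ran from -0.44 ± 0.38 for Tubb3 to 0.30 ± 0.25 for Syt1. No gene passed limma (adjusted p = 0.999 for each of the 9), and 0% of all tested genes were called, with 0 of 9 and 2.41% at an unadjusted p under 0.05. The genotype effect in the base minus that in the apex ran from -0.81 ± 0.90 for Gap43 to 0.48 ± 0.77 for Nefm, with 0 of 9 and 0% of all genes past the threshold (limma), and 0 of 9 and 1.13% at an unadjusted p under 0.05.

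Other neuronal genes gave the same count in the genotype comparisons. In the base 0 of 27 other cytoskeletal genes, 0 of 27 other presynaptic genes and 0 of 26 identity and excitability genes passed, and in the apex likewise. With 0% of all tested genes called in either region, these counts were not particular to neuronal genes. The median log2 differences of these lists were 0.03, 0.09 and 0.16 in the base and -0.01, -0.04 and -0.18 in the apex. Among the cytoskeletal genes in the apex the smallest p belonged to Tubb4a, a tubulin (-0.94 ± 0.38, unadjusted p = 0.040, limma). It was lower in cKO and did not pass after adjustment. The smallest p values among presynaptic genes belonged to Unc13a, a vesicle priming protein, in the base (1.30 ± 0.51, adjusted p = 1, limma) and to Cplx2, a SNARE-binding complexin, in the apex (0.74 ± 0.25, adjusted p = 1, limma).

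The second question was how base and apex differ. In cKO mice all 9 genes had lower means in the base, Prph only by the probe set read, where 52.9% of all tested genes did. As 6 of the 9 moved together, these were not 9 separate readings. In cKO base replicate 1 Nefl (16169), Nefh (11237) and Tubb3 (958.8) lay above both cKO apical arrays, so their lower means rested on replicate 2. In that replicate 1 array Stmn2 and Snap25 lay between the cKO apical arrays, and Nefm, Gap43, Syt1 and Prph below both. Nefm (-0.38 ± 0.55), Gap43 (-1.14 ± 0.64) and Syt1 (-0.83 ± 0.29) had all basal arrays below all apical ones, 3 of 9 genes, as did 25.6% of all tested genes. In controls 8 of 9 means were lower in the base, against 52.2% of all tested genes, and Syt1 alone of the 9 had separate groups (-0.79 ± 0.29), as did 16.9% of all tested genes in that direction. Nefm gave -0.85 ± 0.55 and Gap43 -0.33 ± 0.64 in controls. None of the 9 passed limma in cKO mice (smallest adjusted p = 0.338) or in controls (smallest adjusted p = 0.623). The share of all tested genes called was 0.0832% in cKO mice and 0% in controls, and 1 of 9 in each, Syt1, had an unadjusted p under 0.05, as did 11.3% and 7.52% of all tested genes.

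Over both genotypes Syt1 was 1.76-fold lower in the base (-0.81 ± 0.20, 95% confidence interval -1.29 to -0.34). Its adjusted p was 0.11 (limma), which missed the threshold, and its 4 basal arrays all lay below its 4 apical arrays, as did those of 6.4% of all tested genes. With the presumed mouse as a replicate block the adjusted p of Syt1 was 0.0436 as a random block and 0.0473 as a fixed block, so the call rests on a pairing that the labels do not state. All 9 means were lower in the base, where 52.6% of all tested genes were. Prph counts here by the probe set read, near the filter, and another under the filter went the other way. The other 8 genes gave -0.26 ± 0.26 for Nefl, -0.61 ± 0.39 for Nefm, -0.40 ± 0.35 for Nefh, -0.11 ± 0.40 for Tubb3, -0.36 ± 0.39 for Stmn2, -0.34 ± 0.36 for Snap25, -0.74 ± 0.45 for Gap43 and -0.30 ± 0.36 for Prph. In all, 0 of 9 passed, where limma called 1.19% of all tested genes, and 1 of 9 had an unadjusted p under 0.05, where 17.2% did.

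Which control basal array was kept set the size of the regional difference for the 6 genes that moved together. It also set the sign for all of them but Nefm. Without control base replicate 1, all 9 genes were lower in the base over both genotypes, by the probe sets read. Nefm gave -1.10, Stmn2 -0.85, Nefh -0.83, Snap25 -0.79, Tubb3 -0.59 and Nefl -0.56. Without control base replicate 2, 5 of 9 genes were higher in the base, Tubb3 by 0.36 and Snap25 by 0.11, while Nefm stayed lower (-0.13). Either fit kept 1 control basal array and so held no spread between the control basal replicates. Only the size of the differences is therefore given. Syt1 was lower in the base in either fit (-0.68 and -0.95).

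**Figure D3:**
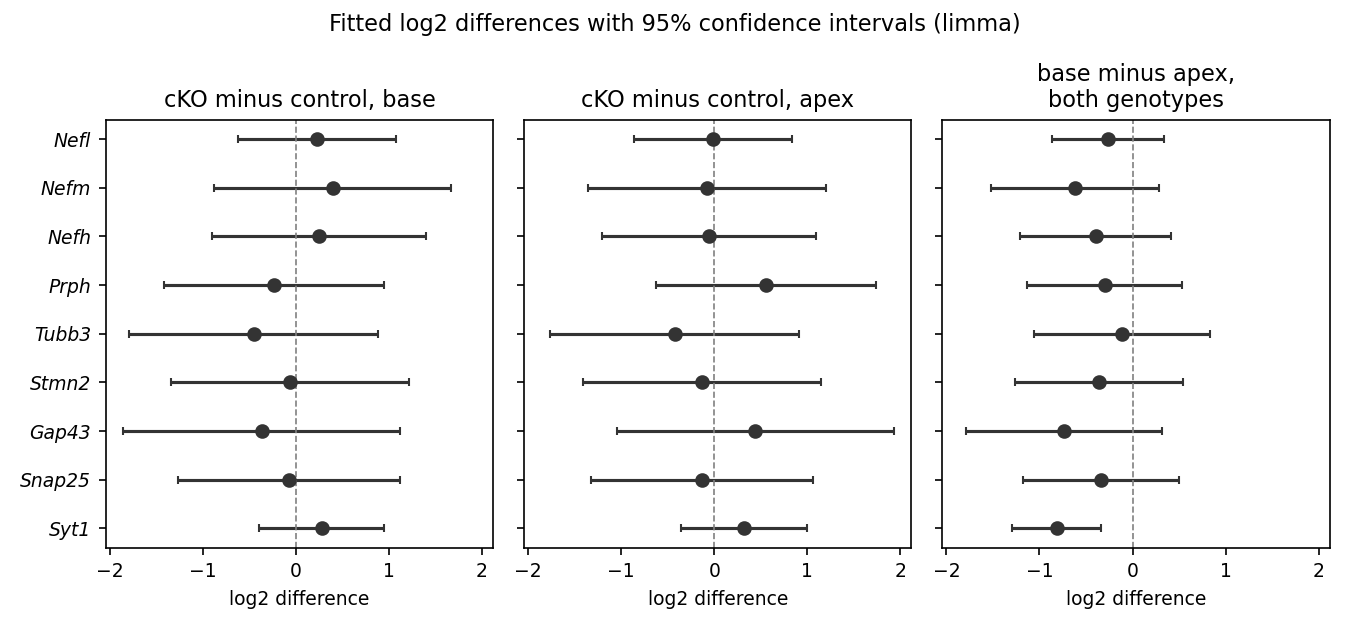
Fitted log2 differences (x axis) of the 9 genes (rows) for cKO minus control in the base, cKO minus control in the apex and base minus apex over both genotypes. Points are limma estimates and bars their 95% confidence intervals; all intervals but that of Syt1 in the last panel include 0.

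Of the other neuronal lists, 0 of 27 cytoskeletal, 0 of 27 presynaptic and 0 of 26 identity and excitability genes passed between base and apex over both genotypes, with medians of -0.26, -0.27 and -0.37 against -0.02 over all genes tested, of which 1.19% were called. The smallest p values belonged to Kcnip4, a potassium channel partner (-1.59 ± 0.31, adjusted p = 0.0638, limma), and to the tubulins Tubb2a (-0.47 ± 0.10, adjusted p = 0.078) and Tubb2b (-1.56 ± 0.36, adjusted p = 0.0887). Of the hair cell genes 5 of 16 passed, all lower in the base, with a median of -1.05, and 3 of 13 supporting cell genes passed, also lower, beside the same 1.19% of all tested genes.

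Syt1 and Gap43 moved beside marker lists. The mean deviation of the 16 hair cell genes was -1.12 and -0.82 in cKO base, -0.59 and -0.35 in control base, 0.93 and 0.69 in cKO apex, and 0.41 and 0.85 in control apex. Syt1 deviated by -0.22 and -0.31, -0.82 and -0.28, 0.58 and 0.56, and -0.10 and 0.60 in the same order. Over the 8 arrays r was 0.832 with the hair cell list, 0.840 with the list of 13 supporting cell genes and 0.664 with the brain glia list. Without the control basal arrays these were 0.879, 0.816 and 0.889. Gap43 in turn had r of 0.670 with the hair cell list (0.728 without the control basal arrays), and Syt1 and Gap43 had r of 0.809 with each other (0.944), so neither list was particular to one of these genes. With the stria vascularis list Syt1 had r of -0.330 over 8 arrays and -0.943 without the control basal arrays. Gap43 had -0.238 and -0.858 with that list. The part of hair cells in the Syt1 signal was not tested.

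Genes of brain glia varied over a wide range between arrays of the same group. Mobp, a myelin protein of oligodendrocytes, the myelinating cells of the brain, read 3918 in cKO apex replicate 1, 5868 in control apex replicate 2 and 2498 in control base replicate 2. In the remaining 5 arrays it was between 48.3 and 185.7. Gfap, an astrocyte filament, and Olig1, an oligodendrocyte factor, were also highest in control apex replicate 2, at 923.3 and 1897. Not all of the list did so. Opalin, another oligodendrocyte protein, read 29.79 in cKO apex replicate 1, below 78.68 in cKO apex replicate 2, and Slc1a2, a glutamate transporter of astrocytes, ran only from 537 to 995.9 and was highest in cKO base replicate 2. Mobp, Gfap, Olig1, Opalin and Slc1a2, like Xist above, were named after their values were seen. The same 3 arrays had the highest Gap43 signals, and its r with the mean of the 6 tested brain glia genes was 0.948 over 8 arrays and 0.964 without the control basal arrays. Of 8 listed brain glia genes 6 were tested and 2 were under the filter on average. Their summed signal was 1541 to 1655 in cKO base, 1223 to 6242 in control base, 2868 to 8664 in cKO apex and 1701 to 14422 in control apex. None was at 0, and the part of brain tissue in the Gap43 signal was not tested.

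**Figure D4:**
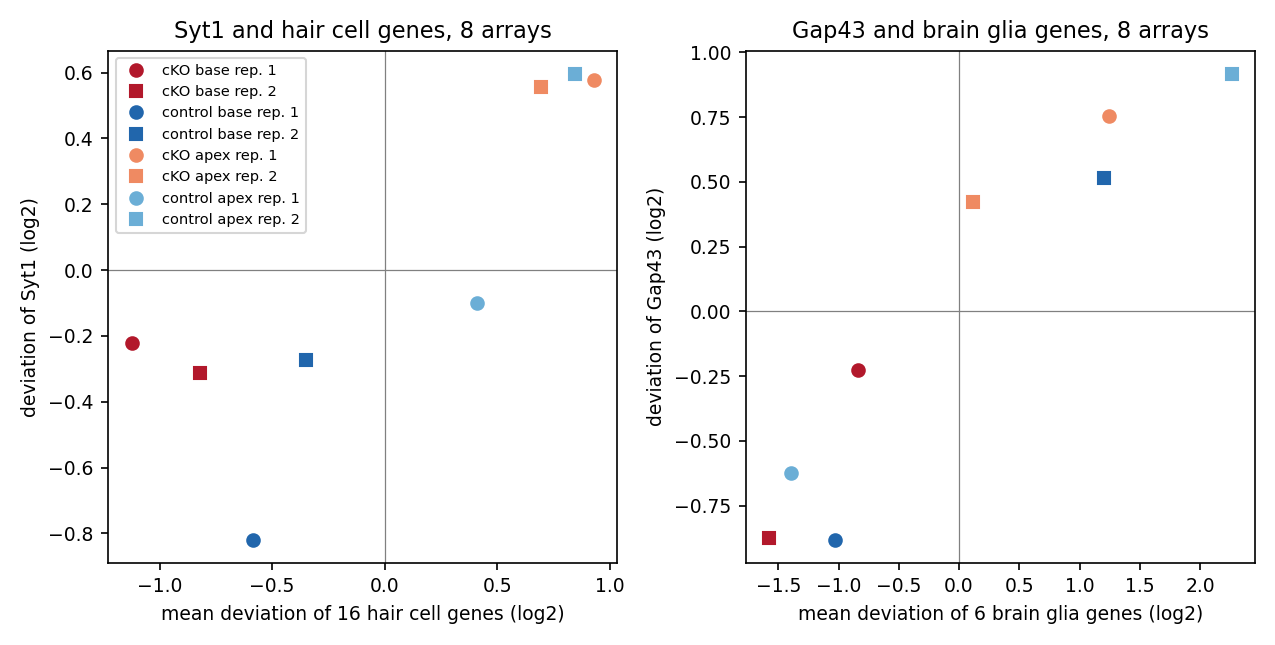
Log2 deviation of Syt1 against the mean deviation of 16 hair cell genes (left) and of Gap43 against that of 6 brain glia genes (right), with 1 point per array, circles for replicate 1 and squares for replicate 2. Basal arrays sit at the lower left of the Syt1 panel, and the arrays high in Mobp sit at the upper right of the Gap43 panel, with control apex and control base each split between low and high.

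Outside the 9, the genes most like their mean pattern over the 8 arrays were Atp2b2 (r = 0.982), Dhx33 (0.982), Dnajc6 (0.980), Ppfia3 (0.977), Wipf3 (0.976), Asic1 (0.975), Pcdh10 (0.972) and Pcyt1b (0.972). Atp2b2 is a plasma membrane calcium pump, Dnajc6 the neuronal auxilin that uncoats clathrin vesicles, Ppfia3 a liprin of the presynaptic active zone, Asic1 an acid-sensing ion channel and Pcdh10 a protocadherin. All 8 had their lowest array in control base replicate 2, from -0.42 for Dhx33 to -1.33 for Ppfia3 on the log2 scale. This follows from the choice, because the mean they were matched to was itself lowest in that array. Of the 9 genes themselves, each of which is part of that mean, Nefm was closest to the mean pattern (r = 0.944) and Gap43 farthest from it (0.057).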

How the data were processed

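Total RNA of 8 organ of Corti samples was labelled in 2 cycles and hybridised to 1 array each, per the labels' protocols. The deposited table holds 45101 probe sets as linear intensity with a trimmed mean of 500 per array, as the values show; MAS5 and affy 1.26 are named per the submitters' processing notes, with no role given. Of the probe sets, 34945 had 1 gene symbol, 932 several and 9160 none, and 64 were array controls; 34741 of the 1-gene probe sets were matched to RefSeq by Entrez identifier.

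Intensities were taken to log2 with no pseudocount and no further normalization. The probe set of highest mean was kept per gene, and genes under the 40th percentile were left out, which left 13221. Limma 3.58.1 (R 4.3.3, intensity trend) was fitted to 4 group means over all 8 samples, and to per-mouse means for genotype over both regions, with Benjamini-Hochberg adjustment over all genes and a threshold of 0.05. The fit was tested on simulated data. Python 3.11.15 was used for descriptions. Named genes were the 9, Dicer1, up to 4 list members of smallest p in a comparison and the 8 tested genes of highest r with the mean pattern of the 9; others are marked as chosen after their values were seen. The 9 genes and the lists were chosen with earlier results of these data known. The 2 samples a group limit the precision. Each p-value sets a difference against the spread between these samples, which limma pools over groups and draws toward that of all genes. Presumed mice were not treated as pairs in the reported fit: deviations of same-numbered apex and base samples had r = 0.0683 in cKO and 0.339 in control mice. Alternatives covered the filter, a pseudocount of 16, normalization, probe set choice, the trend, blocks and leaving out each sample.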

Additional observations from a re-analysis of the deposited data

How the results depend on the processing

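Of 381 values of single genes under alternatives that kept all samples, 376 kept their direction and side of the threshold. Changes of the filter, the trend or the block left the log2 differences as they were. Under these the direction could not change, so the count is no measure of how firm the directions are. Nefl in the apex (cKO minus control) reversed to 0.0267 with arrays centred on the 75th percentile, to 0.0416 with the mean of its probe sets and to 0.10 with its second probe set, an alternative chosen after seeing the data. With the presumed mouse as a replicate block, random or fixed, 1 of 9 genes passed between base and apex over both genotypes, Syt1 (adjusted p = 0.0436 and 0.0473, limma), and over its other alternatives that kept all samples its adjusted p was at most 0.146. The block changed no other call among the 9. Over all genes, base against apex over both genotypes called 157, and 70 to 527 under the alternatives that kept all samples. The same contrast in cKO mice called 11, and 0 to 449.

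Leaving out 1 sample reversed 35 of 296 values. In a comparison of 2 groups, leaving out a sample of another group could not change the difference, and the 296 include such values. The number of the 9 genes called ran from 0 to 4 for base against apex over both genotypes and from 0 to 4 in controls, with all 4 calls made without control base replicate 1, where 11.5% and 4.17% of all tested genes were called. For cKO minus control in the apex the ranges were -0.0946 to 0.0631 for Nefl, -0.26 to 0.10 for Nefm, -0.25 to 0.14 for Nefh, -0.28 to 0.0108 for Stmn2, -0.33 to 1.21 for Gap43, -0.33 to 0.0719 for Snap25 and -0.0290 to 0.67 for Syt1. In the base they were -0.38 to 0.82 for Nefl, -0.57 to 1.36 for Nefm, -0.61 to 1.11 for Nefh, -0.66 to 0.20 for Prph, -1.40 to 0.49 for Tubb3, -1.03 to 0.91 for Stmn2, -1.06 to 0.33 for Gap43 and -0.98 to 0.84 for Snap25. Over both regions they were -0.95 to 0.0703 for Tubb3 and -0.0112 to 0.61 for Syt1. For base minus apex in controls they were -1.82 to 0.12 for Nefm and -1.10 to 0.44 for Gap43. Over both genotypes they were -0.56 to 0.0380 for Nefl, -0.83 to 0.0363 for Nefh, -0.59 to 0.36 for Tubb3, -0.85 to 0.12 for Stmn2 and -0.79 to 0.11 for Snap25. The genotype effect in the base minus the apex was -0.49 to 1.44 for Nefm. The cause was not tested.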

Other observations

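Not every gene of the neuronal lists followed the 6 genes that moved together. Ntrk2, the receptor of the neurotrophin BDNF, read 2580 and 1982 in cKO base, 1218 and 3572 in control base, 1153 and 1273 in cKO apex, and 1040 and 1408 in control apex. Its highest array was control base replicate 2, the lowest array for the 6 genes, and all cKO basal arrays lay above all cKO apical arrays. Ntrk2 was chosen after its values were seen.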
